A study of Mus musculus with 10 samples.

Results

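The genes described are 38 presynaptic genes of the mouse, the synaptic vesicle and release machinery. They were chosen by function, as a list of symbols, and were found among the 54146 genes of the deposited table through their Ensembl identifiers. All 38 were present and all 38 passed the filter on low counts, which left 20446 genes for testing. RNA was sequenced from the lumbar spinal cord of 10 mouse embryos at E12.5, taken with the dorsal root ganglia still attached. The 5 *Dot1l*-cKO embryos carried the Wnt1cre2/+ transgene and Dot1l fl/fl, and the 5 controls carried no transgene. *Dot1l* encodes the enzyme that methylates lysine 79 of histone H3. Litter 1 held 3 controls (+/+; Dot1l fl/fl) and 3 *Dot1l*-cKO embryos. Litter 2 held 2 controls (+/+; Dot1l fl/+) and 2 *Dot1l*-cKO embryos. The label gives the background of all embryos as B6.Cg-E2f1Tg(Wnt1-cre)2Sor/J. No embryo carried the transgene without the deletion, so transgene and deletion cannot be told apart. The Wnt1 promoter drives Cre mainly in the dorsal neural tube and in the neural crest, from which the dorsal root ganglia arise. Cells without Cre keep the gene. With a Cre reporter the authors also saw scattered positive nuclei in the ventral cord, and they propose that ventral cells might be affected too. The question addressed was which presynaptic functions, if any, differed between the genotypes within litters, and which differed between litters.

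Transmitter is released when a synaptic vesicle docks at the active zone, is primed for fusion and fuses on calcium entry. Synapsins tether vesicles in the reserve pool, and Rab3 GTPases with their effector rabphilin guide them to the active zone. RIM, Munc13, bassoon, piccolo, ELKS and liprin-alpha proteins form the scaffold and prime the vesicle. The SNARE proteins syntaxin, SNAP-25 and synaptobrevin pull the membranes together, complexins clamp and support that step, and synaptotagmins and Doc2 proteins sense calcium. In the embryonic cord many of these genes are switched on as neurons leave the cell cycle, before most synapses have formed.

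Promoter windows were read from RefSeq (GRCm38.p6) for 28 of the 38 genes, which have 37 listed start sites among them. Each window runs from 250 bases before to 50 bases after a start. Those shown are of interest because they belong to the gene called between the genotypes (*Rph3a*) and to the 3 members (*Syn1*, *Unc13a* and *Ppfia3*) whose window held TTCAGCACC on either strand. Those letters are the left part of RE1, the element bound by the neuronal gene repressor REST. They are in capitals below (as their reverse complement in *Unc13a*), and each sequence is written 5′ to 3′ on the gene's strand.
Rph3a promoter, chr5:121010043-121010342, minus strand: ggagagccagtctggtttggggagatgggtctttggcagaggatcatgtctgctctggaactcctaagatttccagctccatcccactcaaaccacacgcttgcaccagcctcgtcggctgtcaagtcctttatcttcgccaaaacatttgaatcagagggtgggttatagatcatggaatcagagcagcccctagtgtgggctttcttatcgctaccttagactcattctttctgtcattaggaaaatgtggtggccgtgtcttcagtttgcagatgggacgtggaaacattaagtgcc
Syn1 promoter, chrX:20920869-20921168, minus strand: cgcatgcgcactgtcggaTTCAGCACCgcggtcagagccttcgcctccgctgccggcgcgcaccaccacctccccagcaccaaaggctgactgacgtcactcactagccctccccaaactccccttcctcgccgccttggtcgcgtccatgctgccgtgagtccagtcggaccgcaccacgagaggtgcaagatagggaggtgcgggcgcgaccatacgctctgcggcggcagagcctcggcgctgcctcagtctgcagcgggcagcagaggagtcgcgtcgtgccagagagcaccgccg
Unc13a promoter, chr8:71671708-71672007, minus strand: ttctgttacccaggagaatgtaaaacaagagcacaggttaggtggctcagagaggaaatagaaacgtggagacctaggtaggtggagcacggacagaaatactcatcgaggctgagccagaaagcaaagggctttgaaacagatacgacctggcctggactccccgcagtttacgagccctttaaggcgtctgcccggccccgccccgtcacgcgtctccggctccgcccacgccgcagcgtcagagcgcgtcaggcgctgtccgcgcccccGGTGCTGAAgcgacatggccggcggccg
Ppfia3 promoter, chr7:45366970-45367269, minus strand: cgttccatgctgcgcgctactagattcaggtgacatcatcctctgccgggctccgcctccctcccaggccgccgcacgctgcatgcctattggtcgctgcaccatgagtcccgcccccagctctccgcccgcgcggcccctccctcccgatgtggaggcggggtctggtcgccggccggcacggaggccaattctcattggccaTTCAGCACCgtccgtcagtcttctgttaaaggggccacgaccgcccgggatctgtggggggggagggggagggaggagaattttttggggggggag

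TTCAGCACC began 232 bases before the start in *Syn1*, 46 bases before it in *Ppfia3* and 22 bases after it in *Unc13a*. It was in 3 of the 37 member windows and in 0.371% of all 32851 windows of this length. The cAMP response element TGACGTCA was in 1 member window, that of *Syn1*, and in 1.79% of all windows. The GC box GGGCGG was in 25 of the 37 member windows and in 35.7% of all windows, and the TATA box TATAAA in 3 and in 13.6%. CpG dinucleotides numbered 17 in the median member window and 7 in the median window of all. The window at the annotated start of *Rph3a*, one of 3 listed for that gene, held 7 CpG and no TTCAGCACC. All motifs were searched on both strands, none of them overlaps another, and a match describes the letters only.

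The libraries held 40949585 to 68928443 counted reads, and the 38 genes together took 0.302 to 0.436% of them. Whole-gene counts of *Dot1l* did not check the deletion, since reads outside the floxed part are counted too (94.0 ± 7.87 CPM in controls and 106 ± 6.17 CPM in *Dot1l*-cKO embryos, SD, n = 5 each, adjusted p = 0.132). CPM are counts per 1000000 of the library size after scaling by edgeR's TMM factor. Both *Dot1l*-cKO embryos of litter 2 had low *Xist* (6.00 and 6.80 CPM) and high Y-linked counts (172 and 156 CPM), whereas the other 8 embryos had 499 to 890 CPM of *Xist* and at most 1.16 CPM of Y-linked genes. The genotype difference within litter 2 can therefore not be told apart from sex, which the labels do not give. Nor can it be told apart from the number of floxed alleles, 1 in controls and 2 in *Dot1l*-cKO embryos of that litter. The test of the genotype difference in litter 2 against litter 1 shares both limits. The comparison over both litters was unbalanced in *Xist* and Y-linked counts for the same reason. Among the members, *Syn1* and *Syp* lie on chromosome X. All 14 neuronal markers passed the filter, at 12171 to 14805 CPM in sum. None of the 8 pairs of embryos with the same genotype and litter looked like 1 library deposited again, since chi-square values averaged 9.31 to 26.2 for each gene at 1 degree of freedom.

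**Figure D1:**
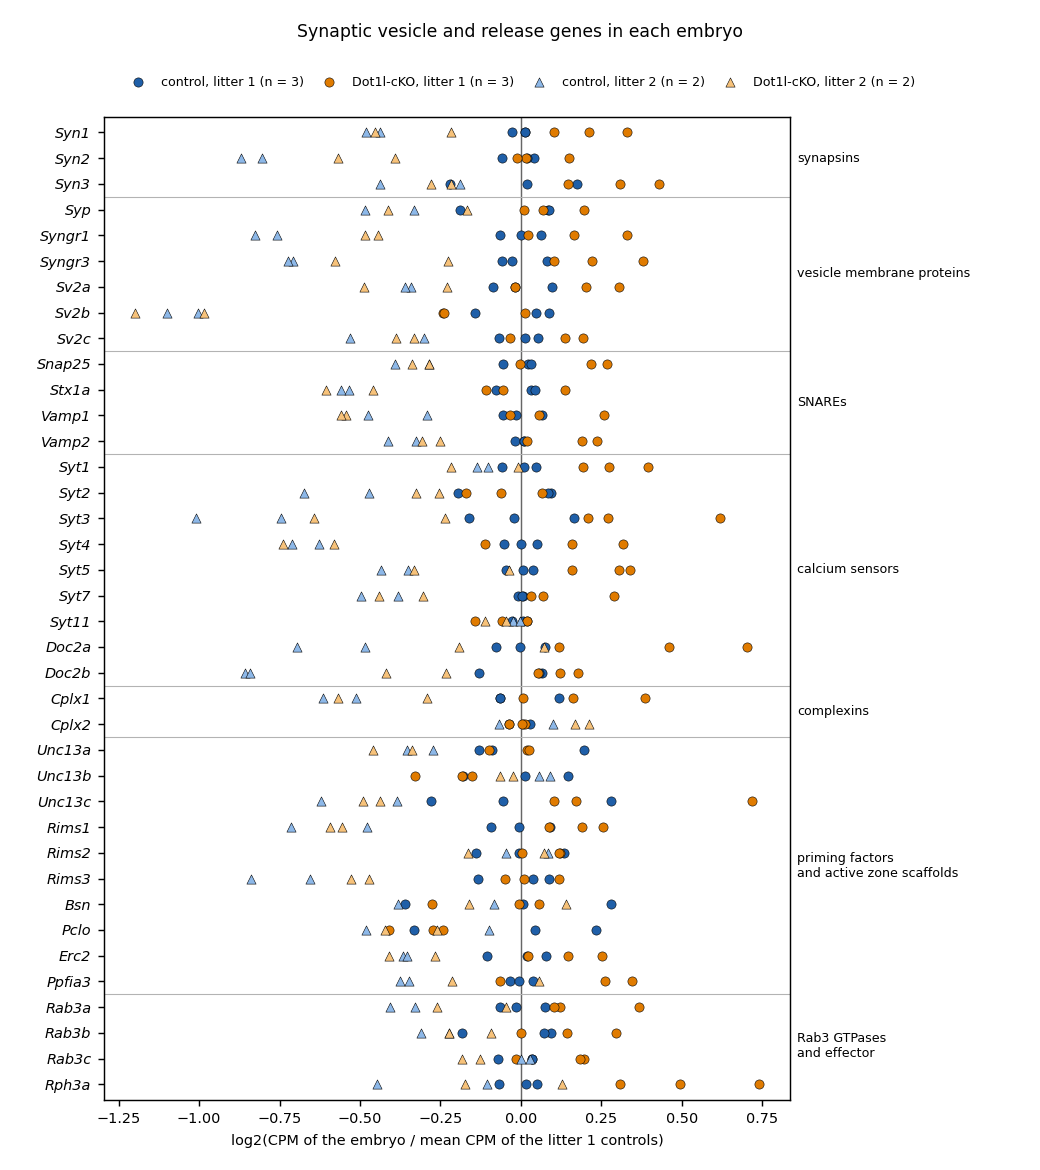
Level of each of the 38 genes in each of the 10 embryos, as log2 of its CPM over the mean CPM of the litter 1 controls (horizontal axis), with genes grouped by function. Circles are embryos of litter 1 and triangles those of litter 2, and in 22 genes every triangle lies to the left of every circle.

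Levels differed widely among the members. To compare genes, levels were divided by exon length, with the exons of all annotated transcripts of a gene merged. Genes with many alternative exons read low on this scale, so ranks between genes are approximate. The mean of the 5 controls ran from 0.512 CPM per kb for *Unc13c* to 97.1 CPM per kb for *Syt11*. Pooled over the litters, *Rab3a* (59.7 CPM per kb), *Vamp2* (50.8 CPM per kb), *Syt4* (42.6 CPM per kb) and *Sv2a* (38.1 CPM per kb) followed *Syt11*. *Syt11*, *Rab3a* and *Vamp2* led in this order among the controls of each litter, but *Syt4* was at 50.1 CPM per kb in litter 1 controls and at 31.5 CPM per kb in litter 2 controls, where *Sv2a* (32.7 CPM per kb) and *Rab3c* (31.9 CPM per kb) were above it and *Cplx2* was level with it. *Doc2a* was next to lowest, at 0.897 CPM per kb and as few as 82 reads in 1 embryo. The highest member of the class was *Syn1* among synapsins, *Sv2a* among vesicle membrane proteins, *Vamp2* among SNAREs, *Syt11* in the class of calcium sensors (synaptotagmins and Doc2 proteins, grouped by family although *Syt11* itself does not bind calcium), *Rims3* among priming and active zone genes and *Rab3a* in the Rab3 class, each in the controls of both litters. The complexins had no such leader: *Cplx2* and *Cplx1* were level over the 5 controls (31.3 and 31.2 CPM per kb), with *Cplx1* above *Cplx2* in litter 1 controls (35.9 against 31.1 CPM per kb) and below it in litter 2 controls (24.3 against 31.5 CPM per kb).

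Between the genotypes, the machinery differed little. Over both litters, 1 of 38 members (*Rph3a*) rose in *Dot1l*-cKO embryos, and the share of all tested genes called higher was 1.84%. None fell, against 0.993% of all tested genes. The log2 fold change was positive in 32 of the 38 members and in 48.1% of all tested genes, with a median of 0.11 for the members and -0.01 for all tested genes. The call rested on edgeR's quasi-likelihood test with litter in the model and an adjusted p (Benjamini-Hochberg, over all 20446 genes) below 0.05. At an unadjusted p below 0.05 the test had 15 members higher and 1 lower, beside 2240 and 2105 of the 20446 tested genes. DESeq2 called 9 members (23.7%) higher and none lower, where it called 4.69% of the 18161 genes with an adjusted p higher and 3.53% lower. limma-voom called 1 higher and none lower, against 1.21% and 0.89% of all tested genes.

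The 9 members with an adjusted p below 0.10 all had higher means in *Dot1l*-cKO embryos, and they came from 5 of the 7 classes. They were *Rph3a* (log2 fold change 0.42), *Doc2a* (0.48), *Syt3* (0.41), *Syngr3* (0.27), *Syt5* (0.25), *Syngr1* (0.24), *Ppfia3* (0.23), *Rab3a* (0.21) and *Syn1* (0.18). The same 9 were those called by DESeq2. At the other end were *Pclo* (-0.21), *Unc13b* (-0.18) and *Sv2b* (-0.11). Class medians of the log2 fold change were 0.18 for the 3 synapsins, 0.18 for the 9 calcium sensors, 0.17 for the 4 genes of the Rab3 class, 0.12 for the 2 complexins, 0.10 for the 6 vesicle membrane proteins, 0.07 for the 10 priming and active zone genes and 0.06 for the 4 SNAREs. Apart from *Rph3a*, no gene of any class passed edgeR's test.

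**Figure D2:**
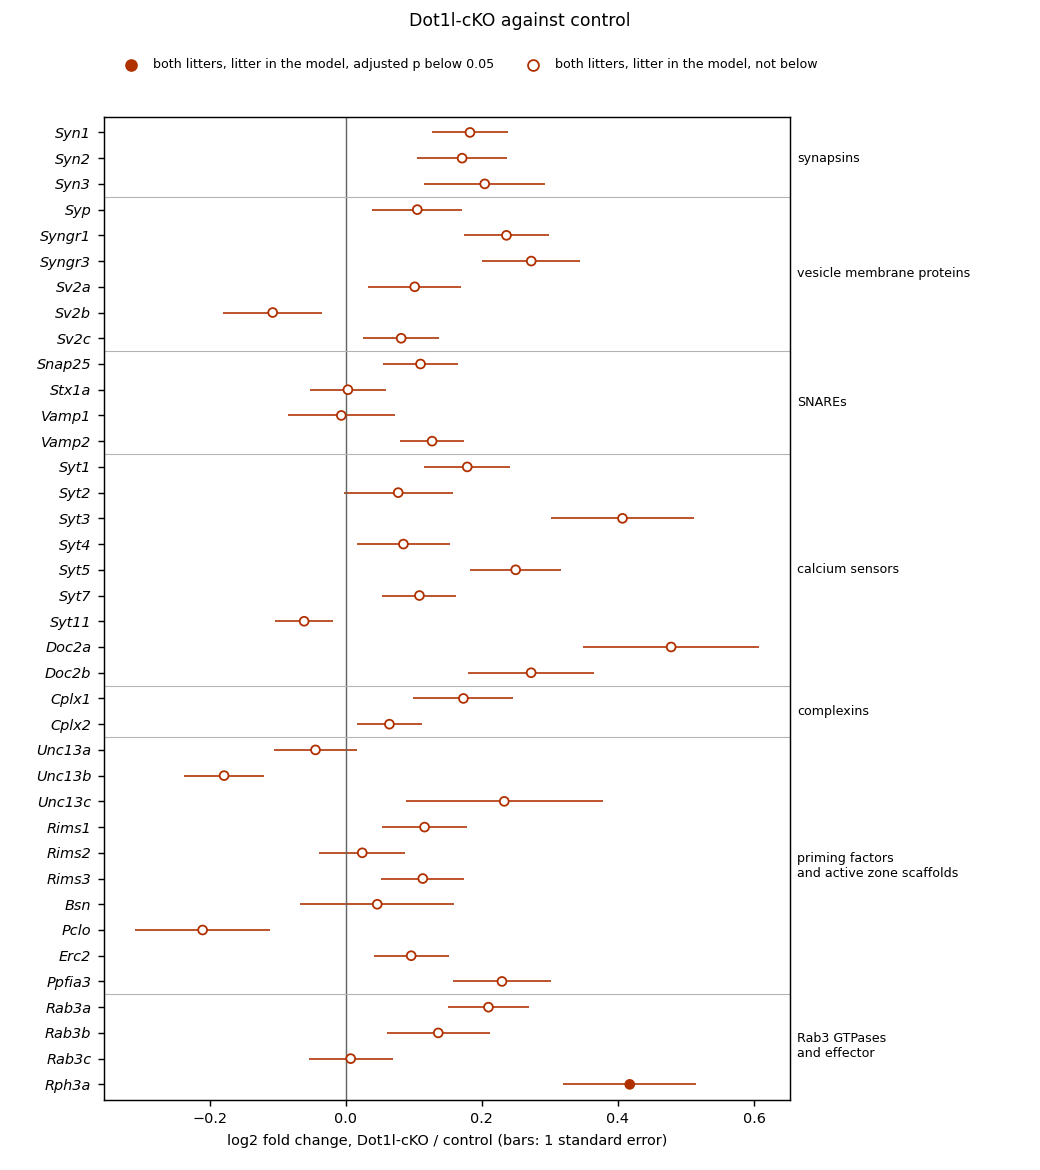
Log2 fold change of each of the 38 genes in *Dot1l*-cKO against control embryos over both litters (horizontal axis), with bars of 1 standard error, genes grouped by function. The only filled point, with an adjusted p below 0.05, is *Rph3a* at 0.42, and 32 of the 38 points lie to the right of 0.

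Between the litters the same genes differed far more. In controls, 26 of 38 members (68.4%) were lower in litter 2 than in litter 1, where 11.8% of all tested genes were called lower. None was called higher, where 11.5% of all tested genes were. No member had an unadjusted p below 0.05 in that direction, and DESeq2 and limma-voom called none higher, where they called 13.1% and 11.1% of all genes with an adjusted p. They called 26 and 25 members lower, beside 12.9% and 10.2% of those genes. The median log2 fold change was -0.39 for the members and -0.02 for all tested genes. In *Dot1l*-cKO embryos, all of which carried 2 floxed alleles, 28 members were lower in litter 2 (10.8% of all tested genes) and 1, *Cplx2*, was higher (9.65% of all tested genes), with a median of -0.48. The litter 2 *Dot1l*-cKO embryos were those with low *Xist* and high Y-linked counts, so this contrast cannot be told apart from sex. Called lower in both genotypes were 23 members (60.5%) and 6.72% of all tested genes. In 22 members every litter 2 embryo lay below every litter 1 embryo, as in 11.2% of all tested genes. The litter difference in controls was larger in size than the genotype difference in 32 of the 38.

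By function, the litter difference in controls took in all 6 vesicle membrane proteins, all 4 SNAREs, 7 of 9 calcium sensors, 2 of 3 synapsins, 1 of 2 complexins, 5 of 10 priming and active zone genes and 1 of 4 genes of the Rab3 class. *Sv2b* had the lowest log2 fold change (-1.05), followed by *Syt3* (-0.87), *Doc2b* (-0.85), *Syn2* (-0.84), *Syngr1* (-0.79) and *Rims3* (-0.74). At the other end, *Syt11* (-0.01), *Rab3c* (0.02), *Cplx2* (0.02), *Rims2* (0.02) and *Unc13b* (0.07) lay close to 0. Of the 26 lower members, 15 were called under all 21 alternatives. Leaving out 1 embryo ended the call at least once for 10 of them, *Doc2a*, *Ppfia3*, *Rab3a*, *Snap25*, *Sv2a*, *Sv2c*, *Syp*, *Syt5*, *Unc13a* and *Vamp1*. Without control embryo 7 of litter 2 fewer members were called lower, and so were fewer of all tested genes. In controls the litter cannot be told apart from the number of floxed alleles, which was 2 in litter 1 and 1 in litter 2.

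**Figure D3:**
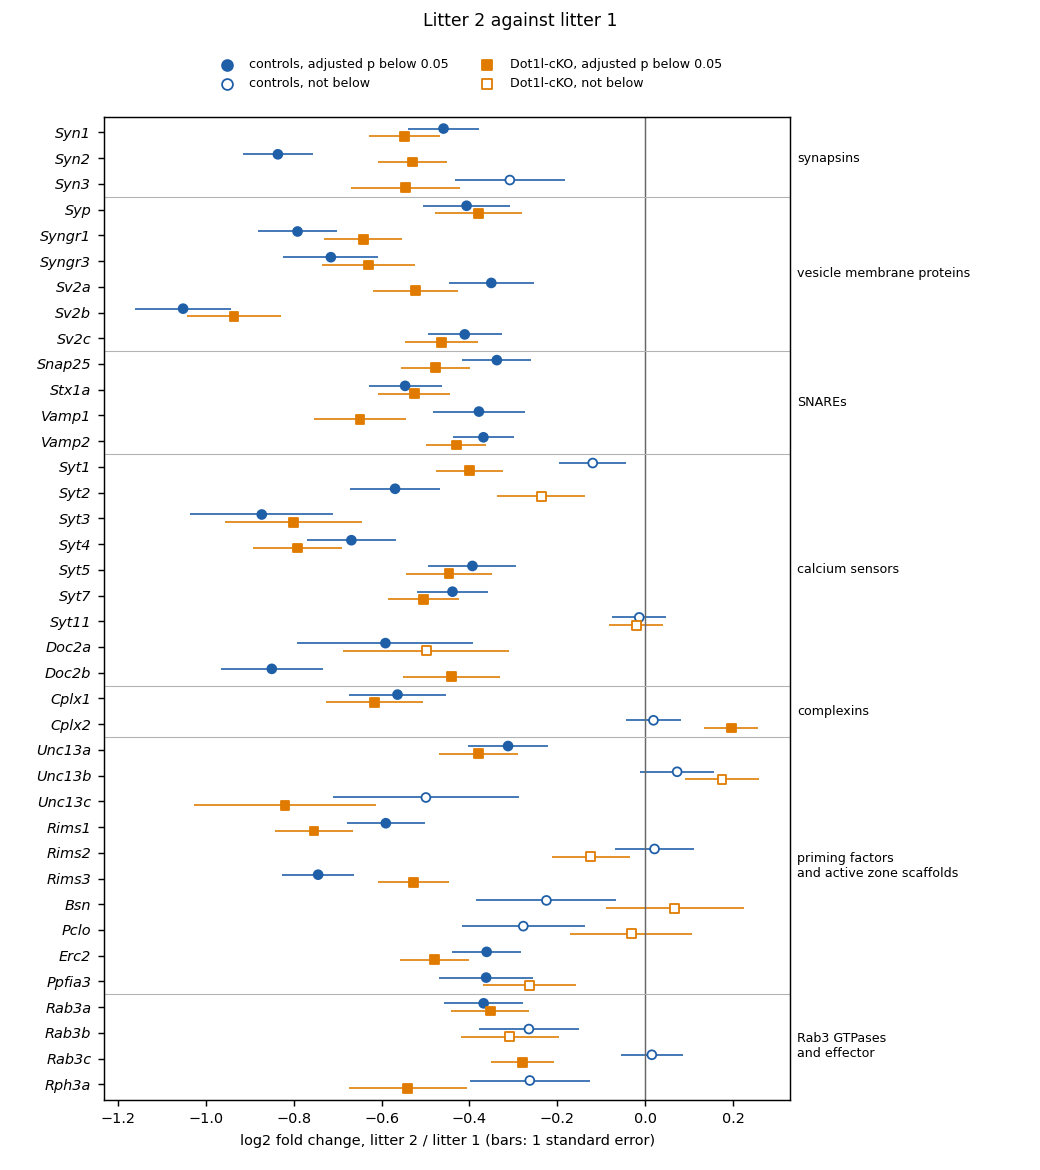
Log2 fold change of litter 2 against litter 1 for each of the 38 genes (horizontal axis) in controls (circles) and in *Dot1l*-cKO embryos (squares), with bars of 1 standard error. Filled symbols have an adjusted p below 0.05, which are 26 circles and 29 squares, and all filled symbols but that of *Cplx2* in *Dot1l*-cKO embryos lie to the left of 0.

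Cell type markers moved with the litters as well. Of 11 neural progenitor markers, 8 were higher in litter 2 controls and none lower, beside 11.5% of all tested genes higher and 11.8% lower, and their summed level was 3246 to 3481 CPM in litter 1 controls and 4494 to 4662 CPM in litter 2 controls. Of 14 neuronal markers, 5 were lower and none higher (13788 to 14131 CPM in litter 1 controls, 12544 to 12724 CPM in litter 2 controls). Of 10 markers of dorsal root ganglion neurons, 8 were lower and none higher (768 to 826 CPM against 341 to 348 CPM), and of 6 markers of Schwann cell precursors and satellite glia, 4 were lower (821 to 872 CPM against 690 to 722 CPM). The median log2 fold change of these 6 was -0.74. The lists are not independent of each other. *Fabp7* is in the progenitor list and in the Schwann and satellite list, and *Isl2* is in the ganglion list and in the motor neuron list. Mesenchyme markers had 4 of 6 lower (1521 to 2041 CPM against 1040 to 1214 CPM) and markers of blood and vessels 3 of 6 (319 to 368 CPM against 254 to 278 CPM). The 7 motor neuron markers had 2 higher and 2 lower, and the 4 of microglia and macrophages had none called by edgeR (1 at an unadjusted p below 0.05). No marker list was at 0 in any embryo. In these bulk samples fewer neurons and less of a transcript in each neuron cannot be told apart, and the part of the tissue's makeup in the litter difference was not tested.

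Between the genotypes over both litters, where 1.84% of all tested genes were called higher and 0.993% lower, neuronal markers had 1 of 14 lower (*Nefl*, a neurofilament) and none higher, progenitor markers 1 of 11 lower (*Mki67*, a marker of cycling cells) and none higher, dorsal root ganglion markers 1 higher and 1 lower of 10, and Schwann and satellite markers 1 of 6 higher. Progenitor markers were negative in 9 of 11 (median -0.08) and neuronal markers positive in 9 of 14 (median 0.05), beside 48.1% of all tested genes positive. The progenitor sum in litter 2 was 4315 to 4422 CPM in *Dot1l*-cKO embryos and 4494 to 4662 CPM in controls. In litter 1 these ranges overlapped. Within litters the dorsal root ganglion list had 4 lower and 1 higher in litter 1, where 0.352% and 0.245% of all tested genes were called in these directions. In litter 2 it had 1 higher and none lower, beside 0.205% of all tested genes higher. Its median genotype difference was -0.18 (log2) in litter 1 and 0.50 in litter 2. The test of the genotype difference in litter 2 against that in litter 1 called none of its 10 genes in edgeR, while 8 had an unadjusted p below 0.05, all with the higher value in litter 2 (992 of the 20446 tested genes had this). Its summed level was 576 to 760 CPM in *Dot1l*-cKO embryos of litter 1, below the controls, and 413 to 474 CPM in those of litter 2, above the controls. All 6 mesenchyme markers had negative genotype differences in litter 1 (median -0.33) and positive ones in litter 2 (median 0.24), none of them called by edgeR, with 2 and 1 at an unadjusted p below 0.05. Litter 2 also had 1 Schwann or satellite marker and 1 blood or vessel marker higher, and litter 1 had 1 motor neuron marker lower. In edgeR's test between the litters, 6 of 6 blood and vessel, 4 of 6 mesenchyme and 4 of 6 Schwann and satellite markers had an unadjusted p below 0.05. All of these had the higher genotype difference in litter 2, and none was called. Neuronal markers had 2 in each direction and progenitor markers none. What these cells contribute to the members' values was not tested.

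Among the synapsins, which coat vesicles and hold them to one another, *Syn1* stood at 77.8, 75.6 and 77.7 CPM in controls and 96.9, 89.3 and 82.7 CPM in *Dot1l*-cKO embryos of litter 1. Litter 2 gave 56.9 and 55.2 CPM in controls and 56.3 and 66.3 CPM in *Dot1l*-cKO embryos. Every *Dot1l*-cKO embryo was above every control in litter 1, and the values overlapped in litter 2. Over both litters the log2 fold change of *Syn1* was 0.18 (SE 0.06, adjusted p = 0.0850), and litter 2 controls were lower (log2 fold change -0.46, SE 0.08, adjusted p = 0.00139). *Syn2* read 49.1, 45.8 and 48.4 CPM in controls and 53.0, 48.3 and 47.3 CPM in *Dot1l*-cKO embryos of litter 1. In litter 2 they were 27.4 and 26.1 CPM in controls and 32.2 and 36.4 CPM in *Dot1l*-cKO embryos. The highest of the 4 litter 2 values was below the lowest of litter 1, and the log2 fold change between control litters was -0.84 (SE 0.08, adjusted p = 3.39e-05). *Syn3* had a log2 fold change of 0.20 (SE 0.09, adjusted p = 0.205) between the genotypes and of -0.31 (adjusted p = 0.0953) between control litters. It was lower in litter 2 in *Dot1l*-cKO embryos (-0.55, adjusted p = 0.00741). A part of the *Syn3* exons, 14.1%, overlaps *Timp3* on the opposite strand, and the reads of such pairs cannot be told apart without strand.

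The vesicle membrane proteins were lower in litter 2 controls in all 6 cases. Synaptophysin (*Syp*) gave 124, 124 and 102 CPM in controls and 134, 122 and 117 CPM in *Dot1l*-cKO embryos of litter 1. In litter 2 the values were 83.3 and 92.6 CPM in controls and 87.5 and 104 CPM in *Dot1l*-cKO embryos. The highest litter 2 value exceeded the lowest litter 1 control, and control litters differed by a log2 fold change of -0.41 (SE 0.10, adjusted p = 0.0101). Antisense *Gm14703* covers 16.8% of the *Syp* exons. *Syngr1*, a synaptogyrin of the same tetraspan family, gave 41.0, 39.2 and 37.5 CPM in controls and 49.3, 39.8 and 44.0 CPM in *Dot1l*-cKO embryos of litter 1. Those of litter 2 were 22.1 and 23.2 CPM in controls and 28.8 and 28.04 CPM in *Dot1l*-cKO embryos. It separated the litters in all embryos (-0.79 in controls, SE 0.09, adjusted p = 8.5e-05) and, within litter 2, the genotypes, while 1 *Dot1l*-cKO embryo lay among the controls in litter 1. Its log2 fold change between the genotypes was 0.24 (SE 0.06, adjusted p = 0.0563). *Syngr3* gave 38.2, 41.2 and 37.4 CPM in controls and 50.7, 45.4 and 41.8 CPM in *Dot1l*-cKO embryos of litter 1. For litter 2 they were 23.8 and 23.6 CPM in controls and 26.1 and 33.3 CPM in *Dot1l*-cKO embryos. In both litters every *Dot1l*-cKO embryo lay above every control, with a log2 fold change of 0.27 (SE 0.07, adjusted p = 0.0551). Between control litters the log2 fold change of *Syngr3* was -0.72 (adjusted p = 0.000474).

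SV2 proteins are glycoproteins of the vesicle membrane, and *Sv2a* encodes the target of the drug levetiracetam. *Sv2a* gave 207, 191 and 182 CPM in controls and 239, 191 and 222 CPM in *Dot1l*-cKO embryos of litter 1. The litter 2 values were 152 and 151 CPM in controls and 138 and 165 CPM in *Dot1l*-cKO embryos. No value of litter 2 reached one of litter 1, and the control litters differed by a log2 fold change of -0.35 (SE 0.10, adjusted p = 0.0192). *Sv2b* gave 37.0, 32.5 and 38.1 CPM in controls and 36.2, 30.3 and 30.4 CPM in *Dot1l*-cKO embryos of litter 1. Litter 2 gave 17.9 and 16.7 CPM in controls and 15.6 and 18.1 CPM in *Dot1l*-cKO embryos. All litter 2 values were far below those of litter 1, by a log2 fold change of -1.05 in controls (SE 0.11, adjusted p = 5.23e-05) and -0.94 in *Dot1l*-cKO embryos (adjusted p = 0.000114). It was one of the 6 members with a negative log2 fold change between the genotypes (-0.11, SE 0.07, adjusted p = 0.429). *Sv2c* gave 82.1, 77.7 and 84.5 CPM in controls and 93.0, 79.6 and 89.6 CPM in *Dot1l*-cKO embryos of litter 1. In litter 2 they were 66.1 and 56.3 CPM in controls and 62.2 and 64.6 CPM in *Dot1l*-cKO embryos. The litters did not overlap (-0.41 in controls, adjusted p = 0.00338), and the genotypes overlapped in each litter.

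The SNAREs formed the class with the smallest genotype median and were all lower in litter 2 in both genotypes. *Snap25*, whose product is anchored in the presynaptic membrane, gave 128, 129 and 122 CPM in controls and 152, 126 and 147 CPM in *Dot1l*-cKO embryos of litter 1. In litter 2 the values were 104 and 96.3 CPM in controls and 99.9 and 104 CPM in *Dot1l*-cKO embryos. *Stx1a*, its syntaxin partner, gave 64.8, 65.3 and 60.05 CPM in controls and 69.8, 58.8 and 60.9 CPM in *Dot1l*-cKO embryos of litter 1. Those of litter 2 were 43.0 and 43.8 CPM in controls and 41.6 and 46.1 CPM in *Dot1l*-cKO embryos. Neither gene had a value in litter 2 as high as the lowest of litter 1. Between control litters the log2 fold change was -0.34 for *Snap25* (SE 0.08, adjusted p = 0.00735) and -0.55 for *Stx1a* (SE 0.08, adjusted p = 0.000488). For *Stx1a* the log2 fold change between the genotypes was 0.0032, with 2 standard errors either side reaching from -0.11 to 0.11. Synaptobrevins sit in the vesicle membrane, and *Vamp2* was the most abundant SNARE per exon length. *Vamp2* gave 214, 209.8 and 214 CPM in controls and 251, 216 and 242 CPM in *Dot1l*-cKO embryos of litter 1. For litter 2 they were 169.6 and 159.9 CPM in controls and 172 and 179 CPM in *Dot1l*-cKO embryos. Every *Dot1l*-cKO embryo was above every control of its litter, at a log2 fold change of 0.13 (SE 0.05, adjusted p = 0.140), and every litter 2 embryo was below every embryo of litter 1 (-0.37 in controls, adjusted p = 0.00192). *Vamp1* gave 19.0, 17.9 and 17.4 CPM in controls and 21.7, 17.7 and 18.8 CPM in *Dot1l*-cKO embryos of litter 1. The litter 2 values were 14.8 and 13.0 CPM in controls and 12.4 and 12.3 CPM in *Dot1l*-cKO embryos. Both *Dot1l*-cKO embryos were below both controls in litter 2 and the genotypes overlapped in litter 1, while the log2 fold change between control litters was -0.38 (adjusted p = 0.0195).

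Among the 9 calcium sensors, *Doc2a* and *Syt3* had the largest positive log2 fold changes between the genotypes, and neither passed the test. *Syt3*, a synaptotagmin of high calcium affinity, gave 13.4, 16.8 and 14.8 CPM in controls and 23.1, 18.1 and 17.4 CPM in *Dot1l*-cKO embryos of litter 1. Litter 2 gave 7.46 and 8.96 CPM in controls and 9.63 and 12.8 CPM in *Dot1l*-cKO embryos. Each *Dot1l*-cKO embryo exceeded each control of its litter (0.41, SE 0.11, adjusted p = 0.0525), and the log2 fold change between control litters was -0.87 (SE 0.16, adjusted p = 0.00189). *Doc2a*, a sensor linked to spontaneous and asynchronous release, gave 2.89, 2.75 and 3.06 CPM in controls and 4.73, 3.99 and 3.15 CPM in *Dot1l*-cKO embryos of litter 1. In litter 2 they were 1.79 and 2.07 CPM in controls and 2.54 and 3.05 CPM in *Dot1l*-cKO embryos. Again every *Dot1l*-cKO embryo was above every control of its litter (0.48, SE 0.13, adjusted p = 0.0594), but 39.4% of the exons of *Doc2a* overlap *Ino80e* on the opposite strand. Its litter difference in controls was -0.59 (adjusted p = 0.0484) and was called in 8 of 21 alternatives. *Doc2b* gave 10.5, 9.15 and 10.4 CPM in controls and 10.9, 10.4 and 11.3 CPM in *Dot1l*-cKO embryos of litter 1. In litter 2 the values were 5.53 and 5.59 CPM in controls and 7.49 and 8.52 CPM in *Dot1l*-cKO embryos. The genotypes separated in litter 2 (0.53, adjusted p = 0.118) and overlapped in litter 1 (0.12, adjusted p = 0.621), with 0.27 over both (adjusted p = 0.116). The log2 fold change between control litters was -0.85 (adjusted p = 0.000246).

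*Syt5*, a further calcium-binding synaptotagmin, gave 22.7, 22.3 and 21.4 CPM in controls and 27.4, 28.02 and 24.7 CPM in *Dot1l*-cKO embryos of litter 1. Those of litter 2 were 16.4 and 17.4 CPM in controls and 17.6 and 21.6 CPM in *Dot1l*-cKO embryos. The genotypes did not overlap within either litter (0.25, SE 0.07, adjusted p = 0.0571), and litter 2 controls were lower (-0.39, adjusted p = 0.0124). *Syt7*, a slow, high-affinity sensor, gave 85.1, 84.1 and 84.8 CPM in controls and 103, 88.9 and 86.6 CPM in *Dot1l*-cKO embryos of litter 1. For litter 2 they were 65.0 and 59.96 CPM in controls and 62.4 and 68.6 CPM in *Dot1l*-cKO embryos. The litters were separate and the genotypes separate only in litter 1 (0.11, adjusted p = 0.271 over both, -0.44, adjusted p = 0.00173 between control litters). *Syt2*, a sensor of fast release, gave 56.0, 45.7 and 55.5 CPM in controls and 54.9, 50.2 and 46.6 CPM in *Dot1l*-cKO embryos of litter 1. The litter 2 values were 37.8 and 32.9 CPM in controls and 41.8 and 44.0 CPM in *Dot1l*-cKO embryos. It was lower in litter 2 in controls (-0.57, adjusted p = 0.00144), and in *Dot1l*-cKO embryos the log2 fold change was -0.24 (adjusted p = 0.115). The litter difference of *Syt2* was not called different between the genotypes, since no member passed the interaction test. *Syt4*, which lacks calcium binding in its first C2 domain, gave 202, 195 and 188 CPM in controls and 243, 180.6 and 218 CPM in *Dot1l*-cKO embryos of litter 1. Litter 2 gave 119 and 126 CPM in controls and 117 and 130.2 CPM in *Dot1l*-cKO embryos. Its litters were far apart (-0.67, SE 0.10, adjusted p = 0.000478) and its genotypes overlapped in both, with antisense *Gm26658* covering 14.5% of its exons.

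*Syt1* and *Syt11* did not pass the test between control litters. *Syt1*, the main sensor of fast release in the forebrain, had a log2 fold change of -0.12 there (adjusted p = 0.290) and of -0.40 between litters of *Dot1l*-cKO embryos (adjusted p = 0.00250). Between the genotypes it was 0.18 over both litters (SE 0.06, adjusted p = 0.127), 0.29 in litter 1 (adjusted p = 0.0774) and 0.01 in litter 2 (adjusted p = 0.965). *Syt11*, which does not bind calcium and acts in membrane traffic, gave 509.7, 514 and 497 CPM in controls and 487, 459 and 514 CPM in *Dot1l*-cKO embryos of litter 1. In litter 2 they were 499 and 506 CPM in controls and 469 and 491 CPM in *Dot1l*-cKO embryos. It was the most abundant member per exon length. Its log2 fold change was -0.06 (SE 0.04, adjusted p = 0.440) between the genotypes, -0.01 between control litters (adjusted p = 0.908) and -0.02 between litters of *Dot1l*-cKO embryos (adjusted p = 0.864).

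The complexins, small proteins that bind the assembled SNARE complex, were given different calls between litters. *Cplx1* gave 85.4, 75.1 and 75.2 CPM in controls and 103, 79.0 and 87.8 CPM in *Dot1l*-cKO embryos of litter 1. In litter 2 the values were 55.0 and 51.2 CPM in controls and 53.0 and 64.2 CPM in *Dot1l*-cKO embryos. All its litter 2 values were below all those of litter 1 (-0.56 in controls, SE 0.11, adjusted p = 0.00264). *Cplx2* gave 149, 154 and 157 CPM in controls and 155, 154 and 149.7 CPM in *Dot1l*-cKO embryos of litter 1. Those of litter 2 were 164 and 146 CPM in controls and 172 and 178 CPM in *Dot1l*-cKO embryos. Its control litters overlapped (0.02, adjusted p = 0.866), and its *Dot1l*-cKO embryos were higher in litter 2 (0.20, SE 0.06, adjusted p = 0.0381). Between the genotypes the log2 fold change was 0.17 (adjusted p = 0.193) for *Cplx1* and 0.06 (adjusted p = 0.478) for *Cplx2*.

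**Figure D4:**
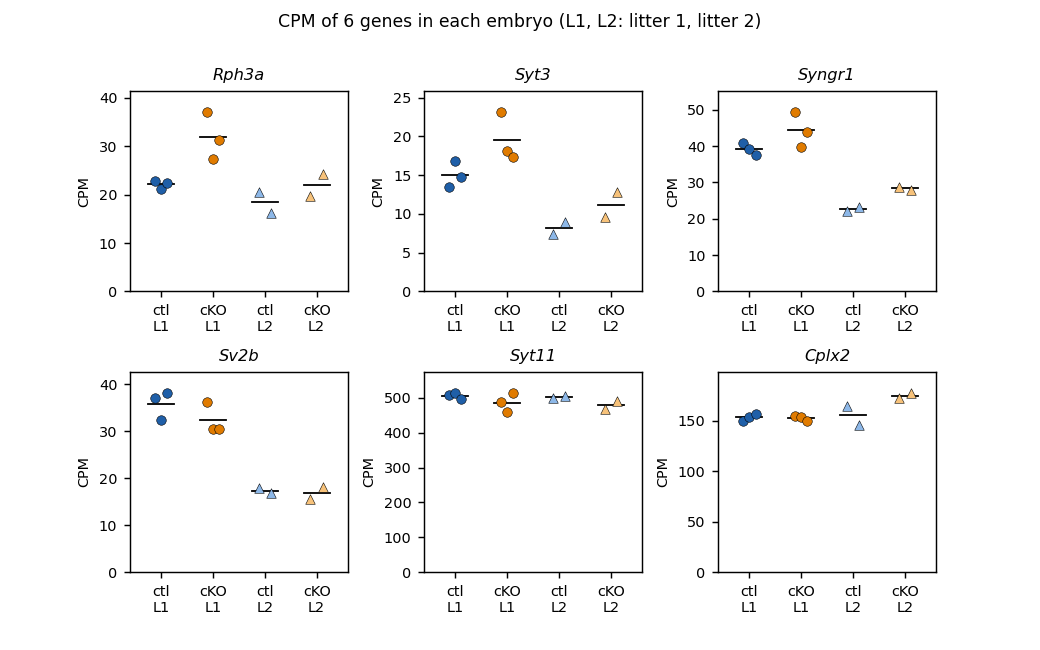
CPM in each embryo (points) and group means (lines) of 6 genes chosen after their values were seen, with controls (ctl) and *Dot1l*-cKO embryos (cKO) of litter 1 (L1, n = 3 each) and litter 2 (L2, n = 2 each). *Sv2b*, *Syt3* and *Syngr1* were lower in all litter 2 embryos, *Rph3a* was highest in the *Dot1l*-cKO embryos of litter 1, and *Syt11* and *Cplx2* differed little between control litters.

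Priming factors and active zone scaffolds were split. *Rims1*, the central RIM scaffold that tethers vesicles and calcium channels, gave 43.8, 38.5 and 41.0 CPM in controls and 49.1, 43.7 and 46.9 CPM in *Dot1l*-cKO embryos of litter 1. For litter 2 they were 29.5 and 25.05 CPM in controls and 27.2 and 27.97 CPM in *Dot1l*-cKO embryos. *Rims3*, which encodes a short RIM with the C-terminal C2 domain only, gave 131, 116 and 135 CPM in controls and 138, 123 and 128 CPM in *Dot1l*-cKO embryos of litter 1. The litter 2 values were 80.9 and 71.2 CPM in controls and 88.4 and 91.8 CPM in *Dot1l*-cKO embryos. Both genes had all their litter 2 values below all those of litter 1, at -0.59 for *Rims1* (SE 0.09, adjusted p = 0.000460) and -0.74 for *Rims3* (SE 0.08, adjusted p = 6.56e-05) in controls. *Rims2*, their close relative, had 0.02 (SE 0.09, adjusted p = 0.899) between control litters and 0.02 (adjusted p = 0.864) between the genotypes. *Erc2*, an ELKS family scaffold, gave 118, 104 and 113 CPM in controls and 133, 113 and 123 CPM in *Dot1l*-cKO embryos of litter 1. Litter 2 gave 86.4 and 87.1 CPM in controls and 83.9 and 92.7 CPM in *Dot1l*-cKO embryos. Its litters did not overlap (-0.36 in controls, adjusted p = 0.00529). *Ppfia3*, encoding liprin-alpha 3, gave 73.3, 74.8 and 77.0 CPM in controls and 89.9, 95.4 and 71.7 CPM in *Dot1l*-cKO embryos of litter 1. In litter 2 they were 57.8 and 58.9 CPM in controls and 64.7 and 78.0 CPM in *Dot1l*-cKO embryos. The genotypes separated in litter 2 and overlapped in litter 1 (0.23, SE 0.07, adjusted p = 0.0938), and the control litters differed (-0.36, adjusted p = 0.0265). That litter call held in 5 of 10 fits that left out 1 embryo, being lost without any 1 of the 5 controls (largest adjusted p = 0.127), and with an offset for GC content the difference was -0.16 (adjusted p = 0.114). A *Dot1l*-cKO embryo of litter 2 reached the level of litter 1.

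The Munc13 genes, whose products open syntaxin for priming, were given different calls. *Unc13a* gave 121, 117 and 147 CPM in controls and 129.8, 130.5 and 119.6 CPM in *Dot1l*-cKO embryos of litter 1. In litter 2 the values were 106 and 100.4 CPM in controls and 93.3 and 101 CPM in *Dot1l*-cKO embryos. The litters were separate (-0.31 in controls, SE 0.09, adjusted p = 0.0238) and the genotypes were not (-0.04, adjusted p = 0.724). *Unc13b* had 0.07 between control litters (adjusted p = 0.591) and a negative log2 fold change between the genotypes (-0.18, SE 0.06, adjusted p = 0.108). *Unc13c*, the least abundant member per exon length, had 0.23 (SE 0.14, adjusted p = 0.381) between the genotypes, -0.50 (adjusted p = 0.108) between control litters and -0.82 (adjusted p = 0.0131) between litters of *Dot1l*-cKO embryos. The giant scaffolds bassoon (*Bsn*) and piccolo (*Pclo*) passed the test in none of the 6 comparisons, like *Syt11*, *Unc13b*, *Rims2* and *Rab3b*. The log2 fold changes of *Bsn* and *Pclo* between the genotypes were 0.05 (SE 0.11, adjusted p = 0.854) and -0.21 (SE 0.10, adjusted p = 0.240), and between control litters -0.22 (adjusted p = 0.348) and -0.28 (adjusted p = 0.178). Leaving out 1 embryo, the litter value ran from -0.38 to -0.06 for *Bsn* and from -0.48 to -0.10 for *Pclo*.

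In the Rab3 class, rabphilin 3A (*Rph3a*), the effector that binds Rab3 on the vesicle, was the member called between the genotypes. It lies on chr5, from 120940499 to 121010092 of GRCm38, on the minus strand. *Rph3a* gave 22.9, 21.1 and 22.3 CPM in controls and 37.0, 27.4 and 31.2 CPM in *Dot1l*-cKO embryos of litter 1. Those of litter 2 were 20.6 and 16.2 CPM in controls and 19.6 and 24.2 CPM in *Dot1l*-cKO embryos. All 3 *Dot1l*-cKO embryos of litter 1 lay above all controls, while in litter 2 the values of the genotypes overlapped. Over both litters *Rph3a* was 1.34-fold higher in *Dot1l*-cKO embryos (log2 fold change 0.42, SE 0.10, adjusted p = 0.0405, higher mean in both litters). Within litter 1 the log2 fold change was 0.53 (SE 0.12, adjusted p = 0.0708) and within litter 2 it was 0.25 (SE 0.15, adjusted p = 0.415). The litter 2 value was 0.093 without control embryo 7, 0.092 without *Dot1l*-cKO embryo 6, 0.43 without control embryo 5 and 0.40 without *Dot1l*-cKO embryo 4 of that litter. The call held in 11 of 20 alternatives, over which the log2 fold change ran from 0.34 to 0.53. It was lost when control embryo 4 (adjusted p = 0.0923), 5 (0.0747) or 9 (0.0857) of litter 1, control embryo 7 of litter 2 (0.0830), *Dot1l*-cKO embryo 2 of litter 1 (0.0951) or *Dot1l*-cKO embryo 6 of litter 2 (0.112) was left out (embryo numbers as in the labels), and also without both *Dot1l*-cKO embryos of litter 2 (0.0804). Between control litters the log2 fold change of *Rph3a* was -0.26 (adjusted p = 0.191), and in *Dot1l*-cKO embryos it was -0.54 (adjusted p = 0.0120). The value in controls ran from -0.45 to -0.11 leaving out 1 embryo. As the litter term over all 10 embryos it was -0.40 and was called (adjusted p = 0.00645).

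*Rab3a*, the most abundant Rab3 GTPase per exon length, gave 144, 154 and 139.6 CPM in controls and 188, 159 and 157 CPM in *Dot1l*-cKO embryos of litter 1. For litter 2 they were 110.02 and 116 CPM in controls and 122 and 141 CPM in *Dot1l*-cKO embryos. Every *Dot1l*-cKO embryo was above every control of its litter (0.21, SE 0.06, adjusted p = 0.0695), and litter 2 controls were lower (-0.37, SE 0.09, adjusted p = 0.00965). *Rab3b* had 0.14 (adjusted p = 0.327) between the genotypes and -0.26 (adjusted p = 0.112) between control litters. *Rab3c* had 0.0073 (SE 0.06, adjusted p = 0.963) between the genotypes over both litters. The litters had opposite signs, 0.12 in litter 1 (adjusted p = 0.377) and -0.17 in litter 2 (adjusted p = 0.292). Its log2 fold change between litters was 0.02 in controls (adjusted p = 0.910) and -0.28 in *Dot1l*-cKO embryos (adjusted p = 0.0140).

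Within litters, the calls of the members depended on the tool. No member passed edgeR's test in litter 1, where 0.597% of all tested genes did, or in litter 2, where 0.254% did. At an unadjusted p below 0.05 there were 15 members in litter 1 (13 higher), beside 3099 of the 20446 tested genes (1528 higher), and 12 in litter 2 (11 higher), beside 3432 (1911 higher). DESeq2 called 2 members higher in each litter, where it called 1.79% of the genes with an adjusted p higher in litter 1 and 2.46% in litter 2. limma-voom called none, beside 0.259% of all tested genes higher and 0.406% lower in litter 1 and 0.0489% and 0.0293% in litter 2. Log2 fold changes were positive for 29 members in litter 1 (median 0.14) and for 29 in litter 2 (median 0.08), with 25 positive in both and 5 negative in both. The difference between the litters in the genotype effect was called for no member by edgeR, DESeq2 or limma-voom. Over all genes edgeR called 0.00978%, DESeq2 0.5% in the direction of a higher value in litter 2 and 0.0417% in the other, and limma-voom none and 0.00489%. An unadjusted p below 0.05 in edgeR was reached by 5 members and by 1646 of the 20446 tested genes. In 6 members, *Syngr3*, *Vamp2*, *Syt3*, *Syt5*, *Doc2a* and *Rab3a*, every *Dot1l*-cKO embryo lay above every control within each litter, as in 3.76% of all tested genes. In litter 1 alone, 10 members (26.3%) separated upwards, as 9.05% of all tested genes did, and none downwards, as 9.3% did. In litter 2 alone, 14 members (36.8%) separated upwards, as 24.2% of all tested genes did, and 4 (10.5%: *Vamp1*, *Syt11*, *Unc13b* and *Rab3c*) downwards, as 26.9% did, among embryos whose genotypes also differed in *Xist* and Y-linked counts.

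Another 94 presynaptic genes were listed by function, of which 90 were tested. Over both litters 2 rose in *Dot1l*-cKO embryos and 1 fell (2.22% and 1.11%, where 1.84% and 0.993% of all tested genes did), with a median log2 fold change of 0.05. *Syt17*, a synaptotagmin relative, stood at 8.24 ± 0.804 CPM in controls and 11.1 ± 1.80 CPM in *Dot1l*-cKO embryos (log2 fold change 0.43, SE 0.11, adjusted p = 0.0463). *Rims4*, a short RIM like *Rims3*, stood at 29.5 ± 4.46 CPM and 37.0 ± 8.40 CPM (0.31, SE 0.07, adjusted p = 0.0369). *Stx2*, a syntaxin found in many tissues, stood at 41.8 ± 7.14 CPM and 33.9 ± 2.47 CPM (-0.29, SE 0.06, adjusted p = 0.0304). These levels are means ± SD, n = 5 embryos. Between control litters 33 of the 90 (36.7%) were lower and 3 (3.33%) higher, against 11.8% and 11.5% of all tested genes, with a median of -0.14. The lower genes were 9 of 26 for vesicle endocytosis, 8 of 20 SNARE partners and further SNAREs, 8 of 19 further priming and active zone genes, 6 of 11 further synaptotagmins and calcium sensors, 1 of 7 further vesicle membrane proteins and 1 of 7 vesicular transmitter transporters. The 3 higher ones were *Snap23*, *Vamp3* and *Syt14*, and *Snap23* and *Vamp3* encode SNAREs that are also used outside neurons. In *Dot1l*-cKO embryos 37 of the 90 were lower in litter 2 and 2 higher, against 10.8% and 9.65% of all tested genes.

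Exon composition and gene length varied widely among the members. The members had a median GC content of 52.4% (longest annotated transcript of each gene), against 49.4% for all tested genes, and a range of 38.7 to 60.9%. Their median gene length was 53.9 kb, against 17.3 kb for all tested genes, and ranged from 3.90 to 856 kb. With an offset for GC content no member was called between the genotypes (*Rph3a* adjusted p = 0.0761), and 23 members were lower in litter 2 controls, beside 11.2% of all tested genes. The 3 members whose litter call was lost under it were *Ppfia3* (-0.16, adjusted p = 0.114), *Unc13a* (-0.24, adjusted p = 0.0659) and *Doc2a* (-0.40, adjusted p = 0.137). Under that offset the log2 fold change between the genotypes was 0.31 for *Doc2a* (0.48 without it), 0.089 for *Syn1* (0.18 without it) and 0.038 for *Ppfia3* (0.23 without it), while the median over the members was 0.12.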

How the data were processed

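Raw counts of reads per gene in lumbar spinal cord with dorsal root ganglia of 10 embryos were deposited by the authors. Per their methods, reads were trimmed with TrimGalore, aligned to mm10 (build names from the submitters' processing notes) with STAR and counted with featureCounts on GENCODE genes in the default workflow of snakePipes. The strand setting is not given in the sources used here, and the NEBNext Ultra kit does not mark strand. Of 54146 genes, 54079 matched GENCODE M21 of GRCm38 by identifier without version, which gave names, exon lengths and overlaps.

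Each column was assigned to its embryo by name. Total counts were 40949585 to 68928443, and the lowest count of a member in an embryo was 82 (*Doc2a*). R 4.3.3 with edgeR 4.0.16 (main test), limma 3.58.1 and DESeq2 1.42.0 (alternatives) was used. Genes were kept by filterByExpr (minimum count 10) over the 4 groups of genotype and litter, TMM factors scaled the libraries, and glmQLFit and glmQLFTest were run with litter and genotype, or with the 4 groups for contrasts within litters, between litters and the interaction. Standard errors are the log2 fold change over the root of F. Scripts were tested on simulated data. P-values were adjusted by Benjamini-Hochberg over all 20446 genes, with a threshold of 0.05.

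The 38 members and all gene lists were chosen with earlier results of these data known. Values in every embryo are given for members with an adjusted p below 0.05 in the comparisons over both litters, within litters, of the interaction or between control litters, and for the highest member per exon length of each class. Other presynaptic genes are named where called over both litters, with the 3 called higher between control litters named in addition. Litter is the block given by the labels, since embryo numbers pair no samples. Labels do not say that each litter was dissected or sequenced apart. Alternatives covered the tool, scaling, filters, form of the test, a GC offset, the litter term, samples in the fit and leaving out each embryo. Leaving out both *Dot1l*-cKO embryos of litter 2 and the litter difference in *Dot1l*-cKO embryos were added after seeing the data.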

Additional observations from a re-analysis of the deposited data

How the results depend on the processing

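No paired analysis was possible because the groups share no replicate numbers, and litter served as the block. In what follows, the percentage after a count is the share of all genes tested that the same setting called in the same direction. Over both litters, the count of members called higher (1, 1.84%) was 9 with DESeq2 (4.69%), 11 without a filter (3.82%; it also gave 2 lower, 2.43%), 2 with at least 10 counts in every embryo (2.45%), 4 with the robust fit (1.91%), 2 with legacy = FALSE (1.98%), 0 with the GC offset (1.08%), 0 without litter in the model (no gene called) and 0 without both *Dot1l*-cKO embryos of litter 2 (0.139%). Leaving out 1 embryo gave 0 to 9, with 9 without *Dot1l*-cKO embryo 7 of litter 1 (4.73%), 6 without *Dot1l*-cKO embryo 4 of litter 2 (1.26%) and 2 without *Dot1l*-cKO embryo 3 of litter 1 (1.27%). In litter 1 the count (0, 0.245%) was 2 with DESeq2 (1.79%), 5 higher (2.01%) and 2 lower (1.95%) without a filter, and 0 to 3 leaving out 1 embryo (3 without *Dot1l*-cKO embryo 3 of litter 1, 1.18%). In litter 2 it (0, 0.205%) was 2 with DESeq2 (2.46%), 6 without a filter (3.01%) and 2 with litter 2 alone (3.98%). Without a filter 35244 genes were tested. Between control litters the count of lower members (26, 11.8%) was 17 to 26 leaving out 1 embryo (17 without control embryo 7 of litter 2, 5.09%), and 1 member was higher in *Dot1l*-cKO embryos (9.65%). The median genotype difference over both litters (0.11) stayed between 0.08 and 0.14. The cause of these shifts was not tested.

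Log2 fold changes near 0 changed sign under some settings. Over both litters, *Vamp1* (-0.01) was 0.00036 without a filter, 0.0067 with limma-voom, 0.018 with the GC offset, 0.012 without litter, 0.10 without both *Dot1l*-cKO embryos of litter 2, and -0.065 to 0.048 leaving out 1 embryo. *Stx1a* (0.0032) was -0.088 with the GC offset, -0.0038 without both *Dot1l*-cKO embryos of litter 2 and -0.035 to 0.032 leaving out 1 embryo. *Bsn* (0.05) was -0.11 with the GC offset, -0.068 without those 2 embryos and -0.028 to 0.15 leaving out 1. Without those 2 embryos *Syt2* was -0.052 and *Cplx2* -0.0049. Leaving out 1 embryo, *Rims2* ran over -0.016 to 0.077, *Rab3c* over -0.026 to 0.048 and *Unc13a* over -0.078 to 0.012. Between control litters, *Rims2* (0.02) was -0.0071 with the GC offset, -0.051 as the litter term over all 10 embryos, -0.12 in *Dot1l*-cKO embryos and -0.046 to 0.090 leaving out 1 embryo. *Rab3c* (0.02) was -0.070 with the GC offset, -0.13 as the litter term, -0.28 in *Dot1l*-cKO embryos and -0.021 to 0.034 leaving out 1. *Bsn* was 0.067 in *Dot1l*-cKO embryos, and leaving out 1 embryo *Unc13b* ran over -0.0095 to 0.15 and *Cplx2* over -0.069 to 0.10. Of these values, that of *Rab3c* in *Dot1l*-cKO embryos was called.

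Groups held 3 embryos in litter 1 and 2 in litter 2, and over both litters the standard errors of the members were 0.04 to 0.14 on the log2 scale. In the main tests, P-values measure the spread between embryos within the 2 litters. They do not measure how litters vary, so the calls between litters hold for these 2 litters alone.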
